A study of Mus musculus with 5 samples.

Results

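Interferon gamma, tumor necrosis factor and the death ligands, with their receptors, were followed through droplet single-cell RNA sequencing of mouse 4T1 mammary tumors and of T cells isolated from them. The group held 10 genes chosen by name, with earlier results of these data known. They were the ligand genes Ifng, Tnf, Lta, Fasl and Tnfsf10 and the receptor genes Ifngr1, Ifngr2, Tnfrsf1a, Tnfrsf1b and Fas. All 10 were found in both feature sets, among 32285 features in the T cell libraries and 54987 in the whole-tumor libraries. The series held 5 libraries from orthotopic 4T1 tumors of the mammary fat pad, carried by BALB/c mice labelled 12 weeks of age, and each library was the only 1 of its group. Both T cell libraries came from doxorubicin (DOX) treated mice, given 5 mg/kg intravenously in 3 doses 3 days apart, and their tumors were classed as sensitive or resistant by growth under treatment. Each T cell library was a pool from 3 tumors, prepared by magnetic selection of untouched T cells and bead depletion of the 4T1-Thy1.1 cancer cells. No T cell library came from saline-treated mice. The other 3 libraries were whole dissociated tumors: a control given saline, a DOX-sensitive tumor and a DOX-resistant tumor. The labels of this set did not match each other throughout. The resistant library carried a source label of a sensitive tumor, and the control carried a source label of a sensitive tumor with sham saline. These libraries are therefore called control-labelled, sensitive-labelled and resistant-labelled.

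Interferon gamma is secreted mainly by activated T cells and natural killer (NK) cells. It binds a receptor whose IFNGR1 chain holds the ligand and whose IFNGR2 chain completes signalling through JAK kinases, which turns on antigen presentation genes, chemokines and guanylate-binding proteins. TNF is made by myeloid cells and T cells and acts through TNFR1 (Tnfrsf1a), which carries a death domain, and TNFR2 (Tnfrsf1b), which does not. Lymphotoxin alpha (Lta) is a lymphocyte relative of TNF that binds the same receptors. Fas ligand (Fasl) and TRAIL (Tnfsf10) engage death receptors that recruit FADD and caspase-8, and Fas is the receptor of Fas ligand. In tumors these molecules are among the means by which cytotoxic lymphocytes act on their targets.

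The sensitive T cell library held 31690845 unique molecular identifiers (UMIs, 1 per captured transcript molecule) in 3949 barcodes, and the resistant library held 35908799 UMIs in 6116 barcodes. After filters on genes and mitochondrial UMIs and removal of 112 and 159 doublet calls, 3448 and 3091 cells were kept, with median depths of 4901 and 5653 UMIs. The 2 libraries shared 31 barcodes, of which 18 were kept in both, and no other pair of libraries shared more than 4. Cells were assigned to gates by marker genes, and a CD8+ cell was a T/NK cell with a Cd3 and a Cd8 UMI and no Cd4 UMI. The gamma-delta gate held only cells without a Cd8 or Cd4 UMI. The T cell libraries were not pure. Beside 1316 and 1561 CD8+ T cells (sensitive, resistant), 198 and 50 CD4+ T cells, 72 and 40 NK cells and 80 and 18 gamma-delta T cells, they held 829 and 605 fibroblasts, 209 and 187 macrophages, 143 and 169 neutrophils and 106 and 133 cancer cells. These last gates had passed a T cell isolation and are described only as the cells found in these libraries. T/NK cells in no subset gate were counted only in totals over all T and NK cells, 2017 and 1851 cells. In the CD8+ gate all 10 T/NK lineage markers had UMIs in both libraries, at 11909 and 10100.4 UMIs per 1000000 UMIs of the gate (CPM). Neutrophil markers summed to 17.0 CPM (7 of 10 markers with a UMI) in the sensitive and 47.6 CPM (10 of 10) in the resistant CD8+ gate.

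Levels are given as CPM with an exact Poisson 95% interval, shares of cells with an exact binomial (Clopper-Pearson) 95% interval, and ratios of CPM with an exact conditional 95% interval. All of these cover counting error only. With 1 library per group no difference has a replicate check and no test was made. Ratios are sensitive over resistant. A gene was called past the fold when its CPM ratio reached 1.5 in either direction with at least 100 UMIs over both libraries.

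Ifng (ENSMUSG00000055170, chr10:118441046-118445892, plus strand, GRCm38) was a lymphocyte transcript in both T cell libraries. T and NK cells held 97.1% of its UMIs in the sensitive library, 3631 in all, and 98.2% in the resistant, and CD8+ cells alone held 72.7% and 81.2%. In the sensitive library the CD8+ level was 408 CPM (393 to 424), followed by NK cells at 159 (122 to 204), CD4+ cells at 115 (95.3 to 137) and gamma-delta cells at 32.0 (15.4 to 58.9). Among these T and NK gates the intervals of NK and CD4+ cells overlapped, and those of the other neighbours did not. Without the 2 CD4+ cells of most Ifng UMIs the CD4+ level was 54.0 CPM, within the gamma-delta interval. The gates named did not cover all T and NK cells. Of 3525 Ifng UMIs in sensitive T and NK cells, 2638, 63, 121 and 10 lay in these gates, in the order given. The others lay in T/NK cells outside these gates, which are not ranked here. The 15 dendritic cells of that library held 10 Ifng UMIs, all in 1 cell. In the resistant library CD4+ cells led at 1100.2 CPM (956 to 1259), ahead of CD8+ cells at 211 (201 to 220) and NK cells at 35.5 (17.0 to 65.2). The CD4+ value there came from few cells, 2 of which held 91.9% of its UMIs. Fibroblasts, which should lack the gene, stood at 1.94 and 1.52 CPM.

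Fasl (ENSMUSG00000000817, chr1:161780689-161788495, minus strand) followed the cytotoxic cells. T and NK cells held 96.8% and 95.8% of its UMIs. In the sensitive library CD8+ cells at 226 CPM (214 to 238) and NK cells at 199.6 (158 to 249) overlapped at the top, and gamma-delta cells at 99.3 (67.4 to 141) overlapped CD4+ cells at 85.5 (68.7 to 105). In the resistant library NK cells at 159.6 CPM (116 to 213) and CD8+ cells at 119 (112 to 126) also overlapped, with CD4+ cells at 94.3 (55.9 to 149). No Fasl UMI was found in cancer cells of either library. Tnfsf10 (ENSMUSG00000039304, chr3:27317028-27342427, plus strand) was likewise held by T and NK cells for 91.4% and 92.0% of its UMIs. NK cells had the highest Tnfsf10 level at 142 CPM in each library, with CD8+ cells at 89.5 and 91.0 CPM. Cancer cells carried a low level of Tnfsf10, 14.2 CPM (9.93 to 19.6) and 7.83 CPM (4.96 to 11.7), above the fibroblast levels of 0.673 and 1.90 CPM.

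Tnf (ENSMUSG00000024401, chr17:35199381-35202007, minus strand) had several sources. Neutrophils had the highest level in both T cell libraries, 1025 CPM (923 to 1135) for the sensitive and 794 CPM (718 to 876) for the resistant. The 10% of neutrophils with the most Tnf UMIs held 75.6% and 80.5% of them. In the sensitive library gamma-delta cells came next at 327 CPM (266 to 396), then macrophages at 140.1 (125 to 156), CD4+ cells at 119.7 (99.7 to 142), NK cells at 83.4 (57.4 to 117) and CD8+ cells at 77.6 (70.9 to 84.7). In that order only the steps from neutrophils to gamma-delta cells and from those to macrophages were clear of overlapping intervals. In the resistant library macrophages came second at 252 CPM (232 to 274). By share of UMIs, T and NK cells held 54.2% of Tnf in the sensitive library and 28.9% in the resistant, while macrophages held 18.7% and 34.5% and neutrophils 21.1% and 24.9%. These shares move with the number of cells each isolation carried over. Lta (ENSMUSG00000024402, chr17:35203165-35205351, minus strand), which lies 1157 bases from Tnf, was in contrast held by T and NK cells for 96.1% and 94.7% of its UMIs, and neutrophils had none in either library.

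**Figure D1:**
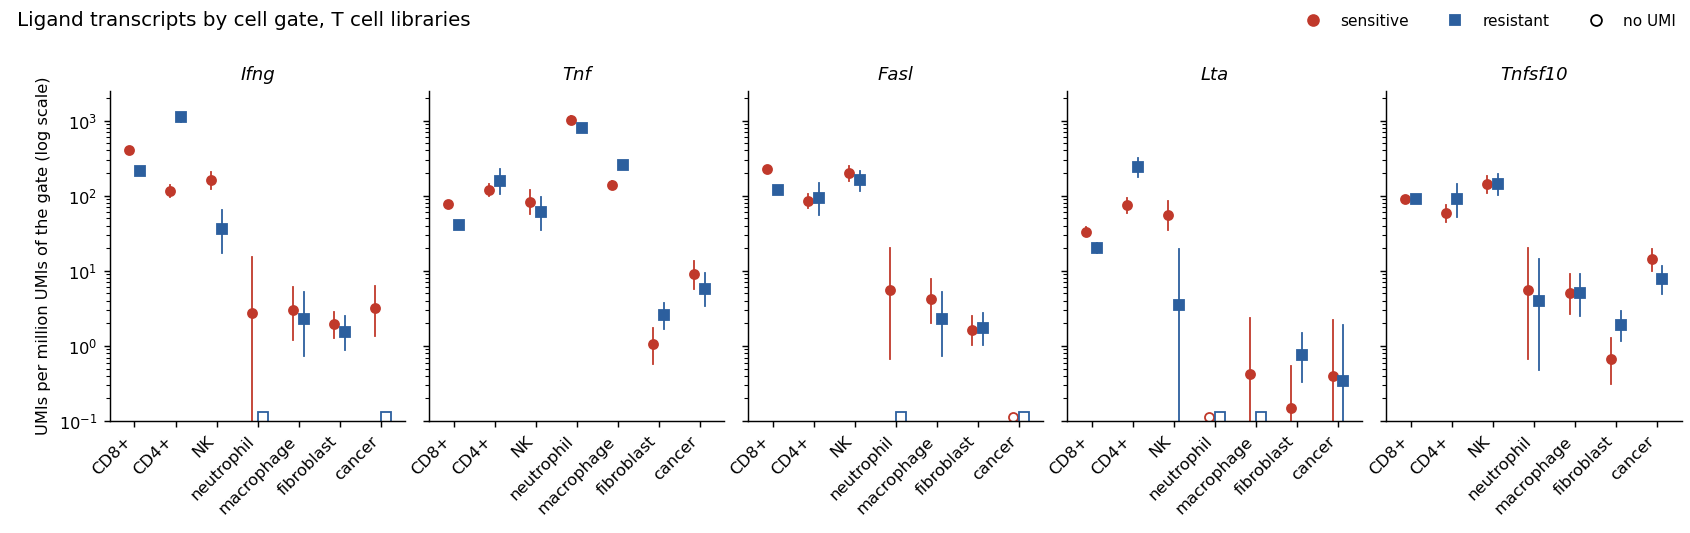
CPM (log axis) of the ligand genes in each gate of both T cell libraries, with 1 panel per gene. Points are the level over all cells of a gate, bars are exact Poisson 95% intervals, cut at the foot of the axis, and open symbols there mark gates with no UMI. Ifng, Fasl, Lta and Tnfsf10 stand highest in lymphocyte gates and Tnf in neutrophils.

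In CD8+ T cells 4 of the 5 ligand genes were higher in the sensitive library. Ifng stood at 408 CPM (2638 UMIs) in sensitive and 211 CPM (1907 UMIs) in resistant cells, a ratio of 1.94 (1.83 to 2.06). Fasl was at 226 CPM (1458 UMIs) against 119 CPM (1078 UMIs), a ratio of 1.90 (1.75 to 2.05). Tnf was at 77.6 CPM (501 UMIs) against 41.1 CPM (372 UMIs), a ratio of 1.89 (1.65 to 2.17). Within the CD8+ gate these 3 effector genes thus differed by close to the same factor. Lta was at 33.3 CPM (215 UMIs) against 20.3 CPM (184 UMIs), a ratio of 1.64 (1.34 to 2.01), but a single sensitive cell held 37 of the UMIs. Without the cell of most Lta UMIs in each library, an alternative added after seeing the data, the ratio was 1.43 (1.15 to 1.77), and it was 1.20 as a mean over single cells. Tnfsf10 did not share the pattern, at 89.5 CPM (578 UMIs) against 91.0 CPM (824 UMIs), a ratio of 0.984 (0.883 to 1.10). Over all T and NK cells, which include the CD8+ cells, the near-equal factor did not hold. The ratios there were 1.58 for Ifng, 1.60 for Fasl and 2.12 for Tnf. Divided by the median ratio of all genes in these cells, they were 1.43, 1.45 and 1.92.

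Of the 9 members with enough UMIs in the CD8+ gate, 6 were past 1.5-fold and higher in the sensitive library and 0 were past it and higher in the resistant. Over all 8293 genes tested in this gate, 5.53% were past the fold and higher in the sensitive library and 2.30% in the resistant. The median gene had a ratio of 1.09, a log2 shift of 0.13. Relative to that median the ratios were 1.77 for Ifng, 1.73 for Fasl, 1.73 for Tnf and just under 1.5 for Lta, and 3 members remained past it, Ifng, Fasl and Tnf, beside 3.03% of all genes in that direction and 3.89% in the other. Every UMI of the gate entered the total, so a CPM falls where other transcripts rise, and the higher neutrophil markers of the resistant gate moved with these differences, as did fibroblast markers at 67.5 CPM (8 of 9 markers) in the sensitive and 23.9 CPM (9 of 9) in the resistant gate. Their part in the results was not tested.

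**Figure D2:**
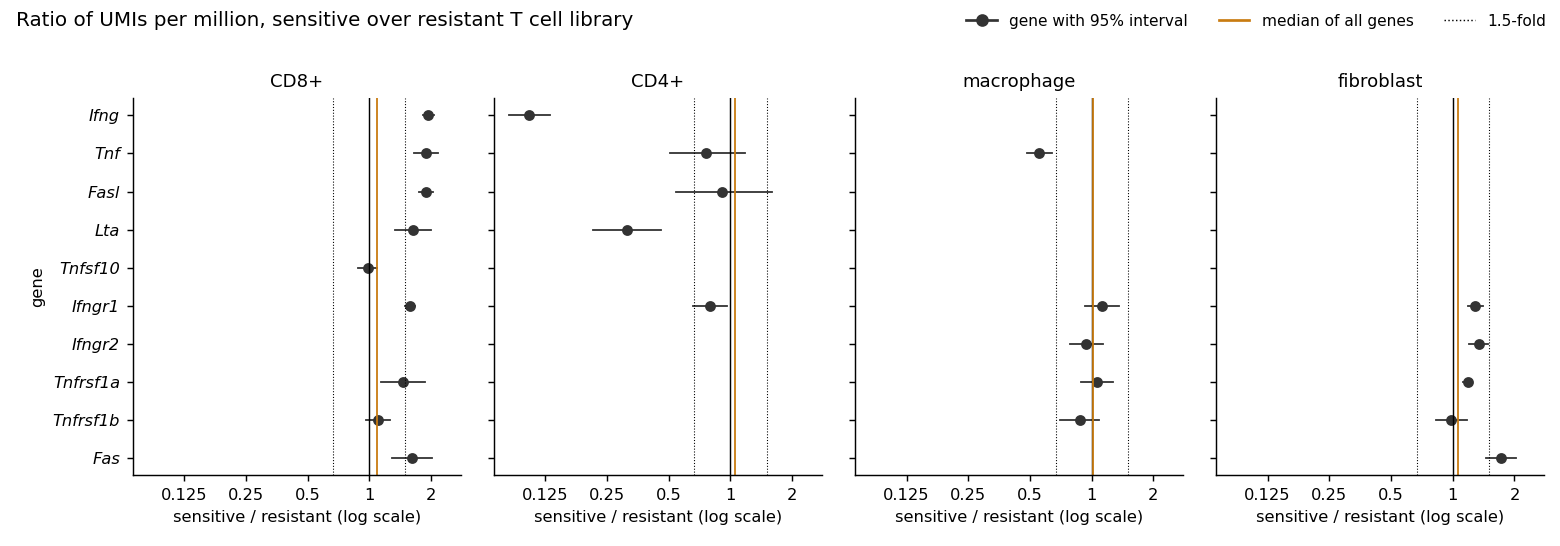
Ratio of CPM, sensitive over resistant T cell library (log axis), for the members with at least 100 UMIs in CD8+, CD4+, macrophage and fibroblast gates. Points carry exact conditional 95% intervals, dotted lines mark 1.5-fold, the black line no difference and the orange line the median of all genes. In CD8+ cells Ifng, Fasl and Tnf lie near 1.9 and Tnfsf10 at 0.984, while Ifng in CD4+ cells lies at 0.104, a value set by 2 resistant cells.

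The share of CD8+ cells with a UMI showed the same order as the levels for Ifng, Fasl and Tnf, while for Lta it was nearly equal in the libraries. Without thinning, 46.9% of sensitive and 43.1% of resistant CD8+ cells had an Ifng UMI, at median depths of 4030.5 and 4617 UMIs, against 1.09% and 1.82% of fibroblasts at median depths of 13226 and 14011. When each cell was thinned to 1000 UMIs, leaving out 10 and 4 shallower cells, the shares were 23.0% (20.8 to 25.4) and 15.4% (13.6 to 17.2). For Fasl the unthinned shares were 57.6% and 44.8% and the thinned shares 21.0% (18.8 to 23.3) and 12.1% (10.6 to 13.9). For Tnf they were 21.0% and 14.5%, and 7.12% (5.79 to 8.65) and 3.66% (2.78 to 4.72) after thinning. The thinned Tnfsf10 shares were 8.65% and 8.93%. The thinned Lta shares were 2.60% (1.81 to 3.62) and 2.12% (1.46 to 2.96), and 4.25% and 3.93% at 2000 UMIs, with overlapping intervals at both depths. Fibroblasts had a UMI of Fasl in 1.45% and 2.31% of cells and of Tnf in 0.724% and 1.82%, and in CD8+ cells all 3 genes were far above that background.

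The UMIs of Ifng were concentrated in a minority of CD8+ cells of both libraries. The 10% of cells with the most Ifng UMIs held 62.0% of them in sensitive and 59.4% in resistant cells, and for Fasl they held 37.7% and 39.5%. The number of cells above a fixed count rises with the level of a gene. Among sensitive cells, 95 of 1316 (7.22%) had 8 or more Ifng UMIs and held 52.7% of its CD8+ Ifng UMIs. In the resistant library they were 44 of 1561 (2.82%) and held 28.9%. Cells with exactly 1 Ifng UMI were more numerous in the resistant library, 331 against 224. The highest cell carried 98 Ifng UMIs among sensitive and 38 among resistant cells. For Fasl, cells with 4 to 7 UMIs were 78 in the sensitive library with 25.0% of the UMIs and 27 in the resistant with 10.8%, and only 4 and 0 cells had 8 or more. For Tnf, 5 sensitive cells with 8 or more UMIs held 11.8% and 2 resistant cells held 15.9%, of which a single cell had 51.

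**Figure D3:**
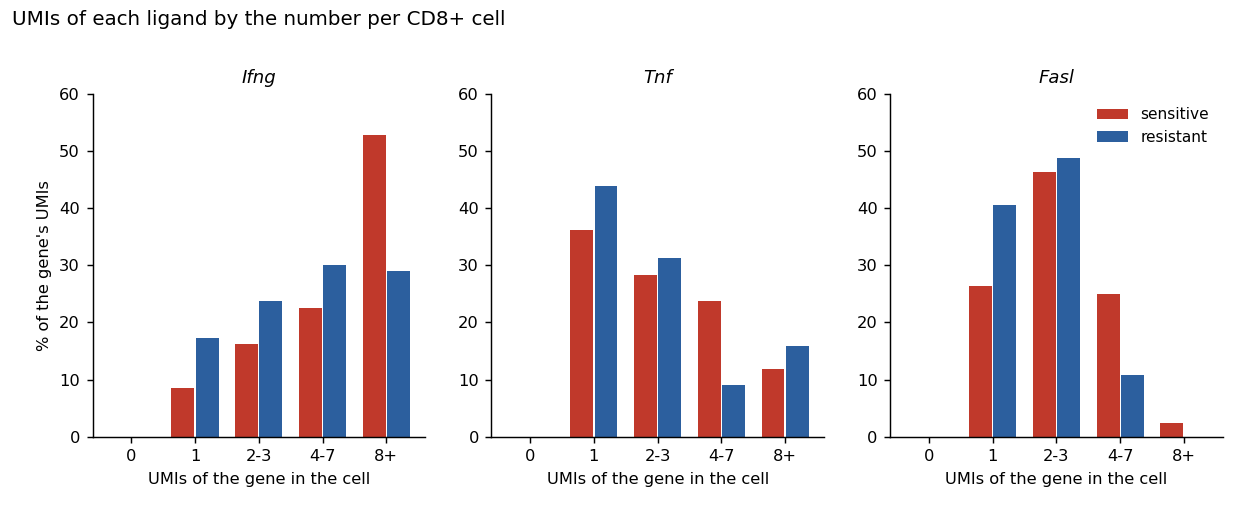
Percent of a gene's CD8+ UMIs (vertical axis) that lie in cells with 1, 2 to 3, 4 to 7 or 8 or more UMIs of it (horizontal axis), for Ifng, Tnf and Fasl in the sensitive and the resistant T cell library. Cells with 8 or more Ifng UMIs held 52.7% of the Ifng UMIs of sensitive and 28.9% of those of resistant CD8+ cells.

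The promoters of the 4 ligand genes that were higher in sensitive CD8+ cells are shown as the 200 bases before the RefSeq start of each gene (GRCm38.p6), read 5′ to 3′ on the gene's strand. Capitals mark matches to any of 4 motifs searched on both strands in the 250 bases before the start: the TATA box TATAAA, the AP-1 site TGACTCA, a 10-letter NF-kappaB consensus and the gamma-activated site TTCNNNGAA, which reads alike on both strands.
Ifng, chr10:118440846-118441045, plus strand: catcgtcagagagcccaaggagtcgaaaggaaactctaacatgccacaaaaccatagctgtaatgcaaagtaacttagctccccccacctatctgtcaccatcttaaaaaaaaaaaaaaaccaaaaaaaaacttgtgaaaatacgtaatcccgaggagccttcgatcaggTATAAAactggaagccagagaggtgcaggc
Tnf, chr17:35202008-35202207, minus strand: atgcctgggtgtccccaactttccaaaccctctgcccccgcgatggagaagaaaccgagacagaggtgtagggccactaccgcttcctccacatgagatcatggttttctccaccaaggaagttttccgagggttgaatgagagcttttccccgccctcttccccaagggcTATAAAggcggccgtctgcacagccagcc
Lta, chr17:35205352-35205551, minus strand: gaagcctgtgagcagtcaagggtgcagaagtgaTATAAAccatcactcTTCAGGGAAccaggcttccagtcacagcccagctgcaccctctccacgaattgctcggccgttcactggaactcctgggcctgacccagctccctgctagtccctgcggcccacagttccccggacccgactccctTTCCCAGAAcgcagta
Fasl, chr1:161788496-161788695, minus strand: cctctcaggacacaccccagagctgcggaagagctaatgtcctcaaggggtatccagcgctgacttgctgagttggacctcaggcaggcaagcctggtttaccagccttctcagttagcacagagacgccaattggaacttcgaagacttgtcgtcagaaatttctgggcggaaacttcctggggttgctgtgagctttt
The Ifng and Tnf promoters held a TATAAA at 30 to 25 and 29 to 24 bases before the start. TATAAA was present in 12.4% of all 32851 mouse promoters of that length. The Lta promoter held a TATAAA further out, at 167 to 162 bases, and 2 TTCNNNGAA matches, at 152 to 144 and 16 to 8 bases. That motif was present in 7.02% of all promoters, and Ifng had a match at 249 to 241 bases, outside the stretch shown. No TGACTCA (4.46% of promoters) or NF-kappaB match (4.11%) was found in these 4 windows, and the Fasl window held none of the 4 motifs. A match is a description of letters, not of a bound site.

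Among CD8+ cells the Ifng difference was found in cells without the stem-like marker Tcf7, a transcription factor of memory-like T cells. In cells without a Tcf7 UMI the Ifng level was 442 CPM (sensitive) and 215 CPM (resistant), a ratio of 2.06 (1.94 to 2.19). In cells with a Tcf7 UMI it was at 118 and 142 CPM, a ratio of 0.832 (0.602 to 1.15), on 80 and 79 UMIs. Tcf7+ cells made up 10.5% of sensitive and 5.64% of resistant CD8+ cells. Cells with a UMI of Pdcd1, the gene of the inhibitory receptor PD-1, had the higher Ifng level in both libraries. The ratio between libraries was 2.14 in Pdcd1+ cells (482 and 226 CPM, on 2045 and 1602 UMIs) and 1.71 (1.49 to 1.97) in Pdcd1- cells (267 and 156 CPM). Pdcd1+ cells were 56.2% of sensitive and 68.8% of resistant CD8+ cells. In cycling cells, with a UMI of Mki67 or Top2a, the Ifng ratio was 1.56 (1.40 to 1.73), and in the others 2.08 (1.93 to 2.24). With a UMI of the early activation gene Cd69 it was 1.72 (1.60 to 1.84), and without one 2.57 (2.30 to 2.87). Without the highest cell of each library the value in cells lacking Cd69 was 2.40 (2.14 to 2.69).

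Tnf split differently. Pdcd1- cells had more Tnf than Pdcd1+ cells in the sensitive library, 110.4 against 60.4 CPM, and the ratio between libraries was 2.40 (1.88 to 3.09) in Pdcd1- and 1.52 (1.28 to 1.81) in Pdcd1+ cells. The resistant Pdcd1+ cells included 1 cell with 51 Tnf UMIs, and without the highest cell of each library the ratios were 2.44 (1.89 to 3.18) and 1.77 (1.47 to 2.12), with overlapping intervals. In cells with a UMI of the early activation gene Cd69, Tnf was at 90.9 and 36.3 CPM, a ratio of 2.50 (2.12 to 2.96). In cells without it the levels were 48.0 and 51.3 CPM, but the resistant value included the same cell. Without the highest cell of each library the ratio there was 1.36 (1.01 to 1.83). The same cell set the Tcf7+ value, whose ratio was 0.748 with it and 1.74 (1.09 to 2.86) without the highest cells. Fasl was higher in the sensitive library at a near constant ratio in each of the 10 states of the 5 splits, from 1.73 in cycling to 2.04 in Tcf7+ cells. A UMI of a marker depends on depth as well as on state, and the difference between states was not tested.

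Among sensitive CD8+ cells Tnf was detected in a larger share of cells with Ifng than of cells without it. At 1000 UMIs per cell, 34 of 301 sensitive cells with Ifng also had Tnf (11.3%, 7.95 to 15.4), against 5.87% (4.50 to 7.51) of cells without Ifng. In the resistant library it was 7 of 239 (2.93%, 1.19 to 5.94) against 3.79% (2.83 to 4.97). At this depth the resistant intervals overlapped and the sensitive intervals did not. At 2000 UMIs per cell the shares were 16.1% (lower bound 12.7) and 10.8% (upper bound 13.2) among sensitive cells and 7.80% and 6.28% among resistant cells, and the intervals of both libraries overlapped. Fasl was found in 24.6% of sensitive Ifng+ cells and 19.9% of Ifng- cells, and in 14.2% and 11.8% of the resistant cells. At 2000 UMIs per cell the Fasl shares were 44.8% and 33.2% (29.9 to 36.6) among sensitive cells, clear of overlap, and 22.3% and 21.8% among resistant cells. The Tnf shares rest on few cells with both genes, and the difference between libraries in co-detection was not tested.

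In CD4+ T cells the Ifng level of both libraries rested on very few cells. It was 115 CPM (121 UMIs in 25 of 198 cells) for sensitive and 1100.2 CPM (210 UMIs in 12 of 50 cells) for resistant cells, a ratio of 0.104 (0.083 to 0.131). A single resistant cell held 135 of the 210 UMIs, and it also held 31 of the 46 resistant Lta UMIs, 4 Tnf UMIs and 1 Fasl UMI among its 11269 UMIs. Without the highest cell of each library the Ifng ratio was 0.183 (0.132 to 0.254), and without the highest 2, also an alternative added after seeing the data, it was 0.559 (0.320 to 1.03) on 56 and 17 UMIs, an interval that includes no difference. The Ifng levels without these 2 cells were 54.0 CPM for sensitive and 96.7 CPM for resistant cells. At a mitochondrial limit of 5%, with all cells kept by it, the Ifng ratio was 0.0379. The Lta ratio went from 0.311 (0.214 to 0.458) to 0.754 (0.426 to 1.42) without the highest cell of each library. Of 5 members tested 2 were past the fold and higher in the resistant library, Ifng and Lta, and without the highest cells 1. The background was 6.95% of genes past the fold in that direction and 13.9% in the other. Tnf was at 119.7 and 157 CPM and Fasl at 85.5 and 94.3 CPM, with ratios of 0.761 (0.508 to 1.17) and 0.906. The Tnf ratio was 1.28 at a mitochondrial limit of 20%. CD4+ cells with a Foxp3 UMI, the mark of regulatory T cells, were 22 and 7 and held 4 and 0 Ifng UMIs. Neutrophil markers in the CD4+ gate were at 776 CPM (4 of 10 markers) and 262 CPM (3 of 10), and their part in these values was not tested.

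NK and gamma-delta cells had fewer UMIs still. Ifng of NK cells was at 159 CPM (63 UMIs, 24 of 72 cells) and 35.5 CPM (10 UMIs, 6 of 40 cells), a ratio of 4.49 (2.29 to 9.82) that stayed under the UMI minimum for a call and ran from 2.93 to 8.03 over the alternatives tried. NK Fasl was at 199.6 and 159.6 CPM, a ratio of 1.25, Tnfsf10 at 142 CPM in each, and Tnf at 83.4 and 60.3 CPM. Only Ifngr1 and Fasl had enough UMIs for a call in NK cells, and 0 of these 2 were past the fold, beside 9.62% of genes higher in the sensitive and 7.11% higher in the resistant library. Lta had 22 and 1 UMIs there. Gamma-delta cells had little Ifng (10 and 2 UMIs) and much Tnf, at 327 CPM (102 UMIs) and 122 CPM (10 UMIs), a ratio of 2.68 (1.40 to 5.76). Their Ifngr1 was at 663 CPM (207 UMIs) and 414 CPM (34 UMIs), a ratio of 1.60 (1.11 to 2.37). Divided by the median gene of that gate it was 1.49. These were the 2 members tested in gamma-delta cells, where 19.2% of genes were past the fold and higher for sensitive and 8.00% for resistant cells.

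Among myeloid cells, macrophage Tnf was past the fold and neutrophil Tnf was not. In macrophages it was lower in the sensitive library, at 140.1 CPM (328 UMIs) against 252 CPM (555 UMIs), a ratio of 0.556 (0.483 to 0.638), and 0.516 without the highest cell of each library. The share of macrophages with a Tnf UMI was 30.6% and 46.5%, and 8.65% and 18.7% at 1000 UMIs per cell. The UMIs were again concentrated, with 5 sensitive and 11 resistant cells holding at least 50% of them. Neutrophil markers within the macrophage gate stood at 479 CPM (10 of 10 markers) and 677 CPM (9 of 10), against 93728 and 114360 CPM in the neutrophil gate. Their part in the Tnf difference was not tested. Tnf was the only 1 of 5 members past the fold in macrophages, where 2.76% of genes were past it in that direction and 4.86% in the other. In neutrophils of the T cell libraries Tnf was at 1025 CPM (369 UMIs, 41.3% of cells) and 794 CPM (401 UMIs, 37.3% of cells), a ratio of 1.29 (1.12 to 1.49). There 7 sensitive and 6 resistant cells held at least 50% of the Tnf UMIs, and the highest cells held 49 and 60. None of the 5 members tested in neutrophils was past the fold, where 10.8% of genes were past it and higher for sensitive and 8.59% for resistant neutrophils.

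The receptor genes had a different distribution from the ligands. Ifngr1 (ENSMUSG00000020009, chr10:19591949-19610229, plus strand) was found in every gate and was highest in lymphocytes. In the sensitive library NK cells stood at 756 CPM (672 to 846), gamma-delta cells at 663 (576 to 760), CD4+ cells at 560.3 (516 to 607) and CD8+ cells at 457 (440.3 to 473), of which only the step from CD4+ to CD8+ cells was clear of overlap. Neutrophils at 167 CPM, fibroblasts at 118, macrophages at 105 and cancer cells at 53.6 were lower. Ifngr2 (ENSMUSG00000022965, chr16:91547072-91565623, plus strand) was arranged the other way, with macrophages highest at 101 and 107 CPM in the 2 libraries, then, with overlapping intervals, neutrophils at 72.2 and 73.3 CPM, and CD8+ cells at 2.17 CPM (14 UMIs) and 1.77 CPM (16 UMIs). Of all UMIs of the 2 chains, Ifngr1 made up 99.5% (99.2 to 99.7) and 99.4% (99.0 to 99.7) in CD8+ cells, but 51.1% and 46.8% in macrophages, 51.3% and 51.4% in cancer cells and 64.0% and 64.8% in fibroblasts. As a share of 2 genes' UMIs this is compared across gates and is not a ratio of protein chains.

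The TNF receptors also divided by lineage. Tnfrsf1a (ENSMUSG00000030341, chr6:125349362-125362484, plus strand) was held by fibroblasts for 79.3% and 74.5% of its UMIs, with a UMI in 88.5% and 90.2% of fibroblasts. By level neutrophils were highest, at 469 CPM (401 to 546) and 315 CPM (268 to 368), above fibroblasts at 283 (274 to 292) and 239 (230.1 to 249). CD8+ cells had 21.1 and 14.4 CPM. Tnfrsf1b (ENSMUSG00000028599, chr4:145213463-145246870, minus strand) was highest in neutrophils, at 258 and 180.2 CPM, and reached 65.2 and 59.1 CPM in CD8+ cells. Tnfrsf1a made up 24.4% (20.9 to 28.2) and 19.5% (16.6 to 22.8) of the UMIs of both TNF receptor genes in CD8+ cells, 92.5% and 91.1% in fibroblasts, 85.5% and 77.3% in cancer cells and 63.7% and 59.0% in macrophages. In the sensitive library 13 of 22 Foxp3+ CD4+ cells (59.1%) had a Tnfrsf1b UMI, at 179 CPM (113 to 268), against 42.7 CPM over all CD4+ cells. The 7 resistant Foxp3+ cells had 0 Tnfrsf1b UMIs, and all 12 of the resistant CD4+ gate lay in cells without Foxp3. Fas (ENSMUSG00000024778, chr19:34290666-34327772, plus strand) was highest in neutrophils, at 175.0 and 121 CPM, with 32.2 and 18.7 CPM in fibroblasts and 17.7 and 15.7 CPM in cancer cells.

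**Figure D4:**
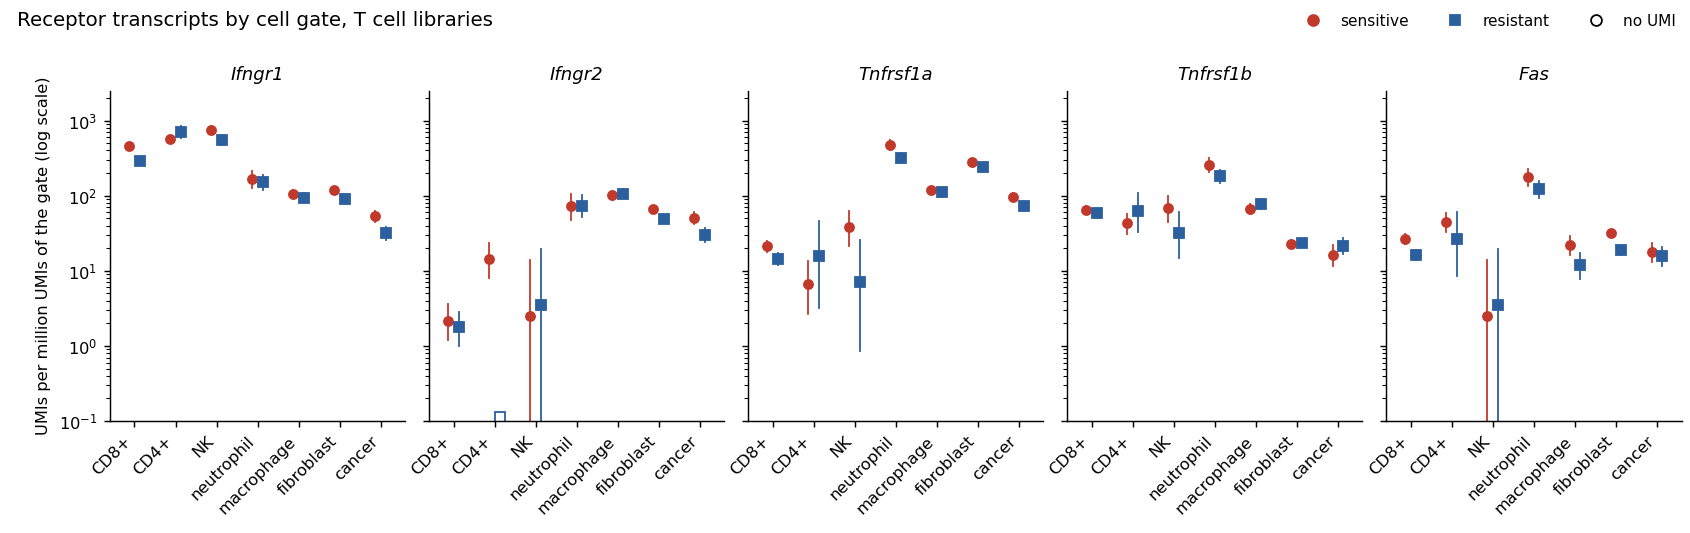
CPM (log axis) of the receptor genes in each gate of both T cell libraries, with 1 panel per gene. Points are the level over all cells of a gate, bars are exact Poisson 95% intervals, cut at the foot of the axis, and open symbols there mark gates with no UMI. Ifngr2 is at 2.17 and 1.77 CPM in CD8+ cells and at 101 and 107 CPM in macrophages.

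Between the T cell libraries, receptor genes were past the fold and higher in the sensitive library in CD8+ cells, fibroblasts, cancer cells and gamma-delta cells. Ifngr1 was past it in the other direction, in Foxp3+ CD4+ cells, and not without the highest cells. In the 22 and 7 Foxp3+ cells Ifngr1, the only member tested, was at 908 CPM (117 UMIs) and 1495 CPM (42 UMIs), a ratio of 0.607 (0.424 to 0.886), beside 13.8% of genes in that direction and 18.2% in the other. A single resistant cell held 19 of the 42 UMIs and a single sensitive cell 16 of the 117, and without the highest cell of each library, an alternative added after seeing the data, the ratio was 0.829 (0.523 to 1.37) on 101 and 23 UMIs, no longer past the fold. CD8+ Ifngr1 was at 457 CPM (2949 UMIs) and 289 CPM (2616 UMIs), a ratio of 1.58, with thinned shares of 35.8% and 25.4% of cells, and CD8+ Fas at 26.5 CPM (171 UMIs) and 16.3 CPM (148 UMIs), a ratio of 1.62 (1.29 to 2.03). Relative to the median gene these were 1.44 and 1.48. CD8+ Tnfrsf1a had a ratio of 1.47 and Tnfrsf1b of 1.10 (0.969 to 1.26). In fibroblasts Fas was at 32.2 CPM (431 UMIs) and 18.7 CPM (197 UMIs), a ratio of 1.72 (1.45 to 2.05), and was the only 1 of 5 members past the fold, with 5.87% of genes past it in that direction and 2.22% in the other. Fibroblast Ifngr1 and Ifngr2 had ratios of 1.29 (1.19 to 1.40) and 1.34 (1.20 to 1.49), Tnfrsf1a of 1.18 (1.12 to 1.25) and Tnfrsf1b of 0.984. In cancer cells both chains of the interferon gamma receptor were past the fold, Ifngr1 at 53.6 and 31.7 CPM, a ratio of 1.69 (1.29 to 2.23), and Ifngr2 with 129 and 88 UMIs, a ratio of 1.70 (1.28 to 2.25). They were 2 of 4 members tested there, with 4.80% of genes past the fold in that direction and 2.34% in the other. In macrophages none of the 4 receptor genes with enough UMIs was past the fold, with ratios of 1.12 for Ifngr1, 0.944 for Ifngr2, 1.06 for Tnfrsf1a and 0.873 for Tnfrsf1b. Macrophage Fas, on 51 and 26 UMIs, was at 21.8 and 11.8 CPM, a ratio of 1.84 (1.13 to 3.08) that was under the UMI minimum.

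The pathways around these genes were followed through 4 lists. Members and lists were chosen with earlier results of these data known, so their counts beside all genes are descriptions only. In CD8+ cells the list of interferon gamma signalling and target genes had 17 of 20 genes tested, of which 5 were past 1.5-fold and higher in the sensitive library and 1 in the resistant, beside 5.53% and 2.30% of all genes, with a median ratio of 1.24 beside 1.09 over all genes. Socs3, a feedback inhibitor of JAK signalling, was at 35.6 and 12.1 CPM, a ratio of 2.93 (2.33 to 3.71), and Irgm1, an interferon-inducible GTPase, at 47.8 and 26.7 CPM, a ratio of 1.79. Gbp3, a guanylate-binding protein, had a ratio of 1.55, and Cxcl10, a chemokine that draws T cells, was the exception at 24.8 and 37.4 CPM, a ratio of 0.662 (0.545 to 0.801). Of the genes that direct Ifng transcription, 1 of 8 tested was past the fold, Tbx21, which encodes T-bet, at 89.7 and 57.2 CPM, a ratio of 1.57, and the list's median ratio was 1.13. TNF and lymphotoxin signalling had 3 of 20 past the fold and higher in the sensitive library, Nfkbie (1.57), Birc3 (1.51) and Tnfsf14 (1.51, on 57 and 53 UMIs), with a median of 1.31. The list of death receptor apoptosis had 0 of 12 tested past the fold, with a median of 1.16. Relative to the median gene the interferon gamma list had 3 genes past the fold and higher in the sensitive library and 1 in the resistant, and the other 3 lists had 0.

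In fibroblasts 9 of 17 tested genes of the interferon gamma list were past the fold and higher in the sensitive library and 0 in the resistant, beside 5.87% and 2.22% of all genes, with a median ratio of 1.65 beside 1.06 over all genes. Among these, named after their values were seen, were Cxcl10 at 97.7 and 26.9 CPM, a ratio of 3.63 (3.19 to 4.14), Gbp5 at 2.98 (2.11 to 4.29), Gbp4 at 2.68 (2.20 to 3.29), the transcription factor Irf1 at 2.10 (1.90 to 2.33) and Cxcl9 at 1.82 (1.69 to 1.95). The TNF list had 6 of 19 higher in the sensitive library, with Tnfaip3, an inhibitor of NF-kappaB signalling, at a ratio of 1.64, and 1 higher in the resistant, Ltb at 0.628. The apoptosis list had 3 of 17 past the fold, Casp6 (1.89), Bid (1.76) and Tnfrsf11b, just past it. T/NK markers in the fibroblast gate were at 81.4 CPM (sensitive) and 128 CPM (resistant), and macrophage markers at 320.1 and 214 CPM. Cancer cell markers there were at 42.3 and 16.6 CPM (9 of 9 markers in each). The part of all these markers in these results was not tested. Relative to the median gene the fibroblast counts were 9, 4 and 2 higher in the sensitive library for the 3 lists. In cancer cells 6 of 16 interferon gamma genes were past the fold and higher in the sensitive library and 0 in the resistant, among them, also named after their values were seen, Cxcl9 at 3.02 (2.17 to 4.25) and Iigp1 at 1.80 (1.51 to 2.16), while 0 of 11 TNF genes and 0 of 8 apoptosis genes were. Of all genes 4.80% and 2.34% were past the fold in these directions in cancer cells, and relative to the median gene 5 interferon gamma genes were. Dendritic cell markers in the cancer gate were at 300.4 CPM (2 of 8 markers) and 201 CPM (3 of 8) and neutrophil markers at 174 CPM (4 of 10) and 125 CPM (8 of 10), and their part in these results was not tested. In macrophages the interferon gamma list had 1 gene of 19 past the fold in each direction, Jak2 at 2.05 and Cxcl9 at 0.512, with a median ratio of 0.867, beside 4.86% and 2.76% of all genes. In neutrophils it had 5 of 11 higher in the sensitive library and 0 in the resistant, or 3 relative to the median gene, with a median of 1.46, where 10.8% and 8.59% of all genes were past the fold in these directions. In the neutrophil gate of the sensitive and resistant libraries T/NK markers were at 197 CPM (10 of 10 markers) and 117 CPM (9 of 10), fibroblast markers at 117 CPM (6 of 9) and 29.7 CPM (5 of 9), and macrophage markers at 981 CPM (8 of 11) and 1658 CPM (11 of 11), and their part in these results was not tested.

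In the whole tumors neutrophils were the main gate, with 312 control-labelled, 231 sensitive-labelled and 136 resistant-labelled cells of 488, 269 and 263 kept, at median depths of 1484.5, 1448 and 2112 UMIs. Tnf was lowest in the control-labelled neutrophils, at 32.1 CPM (19.6 to 49.6, 20 UMIs), and stood at 172 CPM (133 to 218, 67 UMIs) in the sensitive-labelled and 111 CPM (77.0 to 155, 34 UMIs) in the resistant-labelled. The ratio to the control was 5.36 (3.21 to 9.33) and 3.46 (1.94 to 6.35), and these 2 comparisons share the control library. T and NK cells made up 13.5%, 1.86% and 6.84% of the cells kept, in the order control, sensitive, resistant. By their own cell calls the authors reported the highest share of T cells in the sensitive tumor. The ratios follow the labels, and which label is right was not tested. Sensitive-labelled over resistant-labelled Tnf was 1.55 (1.01 to 2.41), just past the fold on 67 and 34 UMIs and 1.49 relative to the median gene. It was the only 1 of 4 members past the fold there, where 10.3% of genes were past it and higher in the sensitive-labelled and 4.21% in the resistant-labelled neutrophils. Neutrophil markers in these gates were at 196509, 127449 and 137856 CPM (9 of 9 listed markers in each) in the order control, sensitive, resistant. In the same order macrophage markers were at 982, 949.8 and 1559 CPM (8, 9 and 10 of 11). T/NK markers were at 89.8, 12.8 and 32.7 CPM (8, 1 and 5 of 10) and fibroblast markers at 64.2, 7.70 and 36.0 CPM (7, 2 and 3 of 9). The part of all these markers in the Tnf differences and those below was not tested. Fas moved in the same direction on few UMIs, at 35.3 CPM (22 UMIs), 89.8 CPM (35) and 131 CPM (40), with ratios to the control of 2.55 (1.45 to 4.56) and 3.70 (2.15 to 6.54). Neither gene reached the UMI minimum for a call against the control. Tnfrsf1a did, at 239 CPM (149 UMIs), 388 CPM (151) and 441 CPM (135), with ratios of 1.62 (1.28 to 2.05) and 1.85 (1.45 to 2.35), or 1.41 and 1.71 relative to the median gene, whose log2 shift was 0.20 and 0.11.

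Tnfrsf1a was the only 1 of 3 members past the fold in each of these comparisons. Of all genes tested 19.7% were past the fold and higher in the sensitive-labelled neutrophils and 7.93% in the control, and for the resistant-labelled these were 14.4% and 5.27%. Ifngr1 was at 170.1, 141 and 154 CPM in the order control, sensitive, resistant. Ifng, Fasl and Lta had 0 UMIs in all 3 neutrophil gates, and the limit of 3 counts corresponds to 4.81 CPM in the control-labelled, 7.70 in the sensitive-labelled and 9.80 in the resistant-labelled gate for each gene. T and NK cells of the whole tumors numbered 66, 5 and 18 and held 3, 0 and 1 Ifng UMIs and 4, 0 and 2 Fasl UMIs, so their ligand levels could not be compared at this depth. Their Ifngr1 level was 514 CPM (61 UMIs) in the control and 611 CPM (55 UMIs) in the resistant-labelled tumor, with overlapping intervals. Resistant-labelled cancer cells had Ifngr1 at 45.3 CPM (40 UMIs) and Ifngr2 at 43.0 CPM (38 UMIs). In the control they had 29.8 CPM (15 UMIs) and 35.7 CPM (18 UMIs), again with overlapping intervals.

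**Figure D5:**
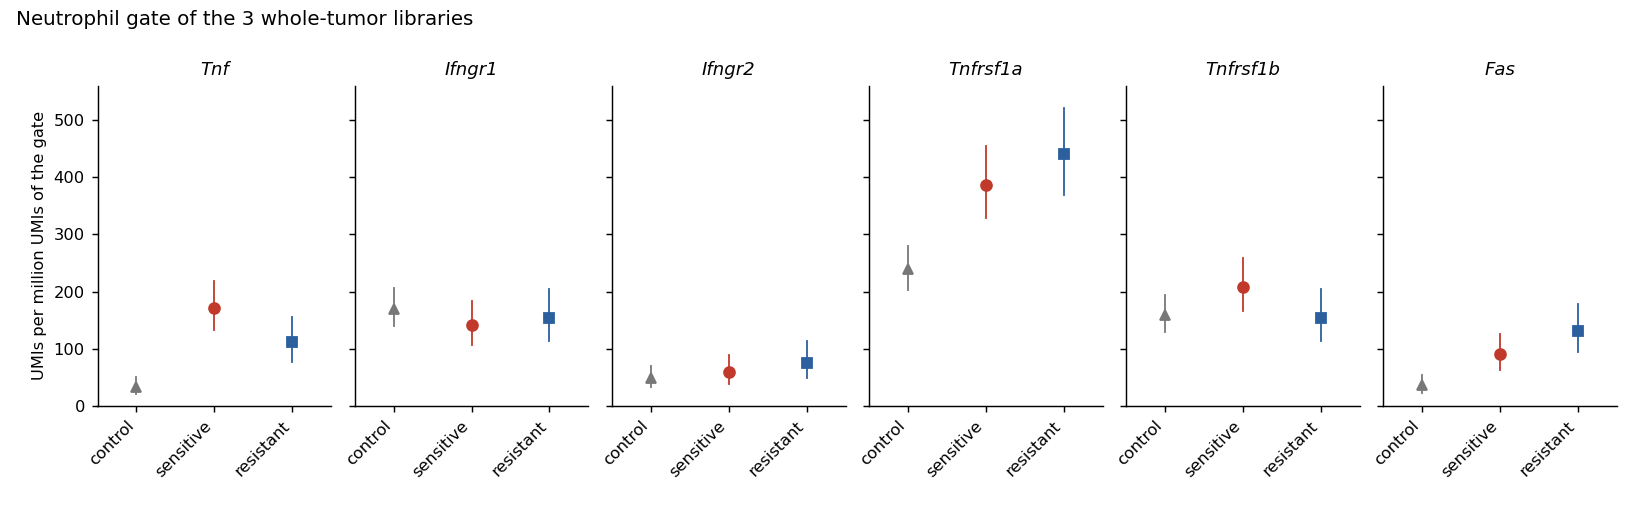
CPM of the receptor genes and Tnf in neutrophils of the 3 whole-tumor libraries. Points are the level over all neutrophils of a library and bars are exact Poisson 95% intervals. Tnf stands at 32.1 CPM in the control-labelled, 172 in the sensitive-labelled and 111 in the resistant-labelled library.

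Over the 16 levels given by gates of at least 20 cells in both T cell libraries, the genes whose log2(CPM + 10) followed the ligands most closely, of 8877 considered, were I730030J21Rik (Pearson r = 0.963), Gstp3 (0.954) and Ubash3a (0.949) for Ifng. For Tnf they were Cxcr4 (0.956), Nfkbid (0.953) and Cd84 (0.952), and for Fasl Ctsw (0.992), Ms4a4b (0.991) and Prkch (0.988). These 16 points share 2 libraries and the contrast between lymphocytes and other cells, so the values describe likeness only.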

How the data were processed

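The authors deposited UMI counts per gene and barcode, made with Cell Ranger 6.0.0 for the T cell and 3.0.1 for the whole-tumor libraries (mm10, per the labels), so the sets were not set against each other. The T cell filter asked for 500 genes or more and no more than 10% of UMIs from mitochondrial genes, and the whole-tumor filter for 200 genes and 20%, although mitochondrial features held 0 UMIs there. Doublets were scored with Scrublet in scanpy 1.11.5 at 0.8% per 1000 barcodes in the T cell libraries, and none was removed from the whole tumors. Cells were assigned to the lineage whose marker score was at least 0.5 with the second best at most 60% of it. CD8+, CD4+, gamma-delta and NK subsets were set by 1 UMI of their genes and by the absence of others. CD8+ cells had no Cd4 UMI and CD4+ cells no Cd8 UMI. Gamma-delta cells had a Cd3 and a Trdc UMI and no Cd8 or Cd4 UMI. Cells with Trdc and Cd8 but no Cd4 were thus counted as CD8+. NK cells had no Cd3, Cd8 or Cd4 UMI. Counts were summed over each gate and divided by its total (CPM). A count of 0 was given a limit of 3 counts. Pathway genes were named as the 2 highest and 2 lowest CD8+ ratios of each list past 1.5-fold, and like genes as the 3 of highest r. Members and lists were chosen with earlier results of these data known. Scripts ran in Python 3.11.15 with numpy 2.4.6, scipy 1.17.1 and pandas 2.3.3 and were tested on simulated data. Promoters are those of RefSeq, matched for 10 of 10 members. Alternatives included other mitochondrial limits, Leiden clusters, no doublet removal, a fold of 2, and leaving out the highest cells.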

Additional observations from a re-analysis of the deposited data

How the results depend on the processing

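The mitochondrial, doublet, clustering and single-cell-mean alternatives were run for 12 T cell library ratios, and none turned the direction of a called one. Other called ratios, such as CD8+ Ifngr1, CD4+ Lta, fibroblast Fas and both cancer cell Ifngr ratios, were recomputed only without the highest cells and relative to the median gene. Ifngr1 in Foxp3+ CD4+ cells went from 0.607 to 0.829, not past the fold, without the highest cells. In CD8+ cells the Ifng ratio ranged from 1.77 (scaled by the median gene) to 2.14 (mean over single cells), Tnf reached 2.21 with Leiden clusters, Fasl reached 2.20 at a mitochondrial limit of 5% and 1.73 scaled by the median gene, and Lta was 1.20 as a mean over single cells. In CD4+ cells the Ifng ratio was 0.133 and 0.0379 at mitochondrial limits of 20% and 5%, 0.0518 with 2 UMIs asked of each subset, 0.174 as a mean over single cells, 0.183 without the highest cell of each library and 0.559 without the highest 2. CD4+ Tnf, not called, was 1.28 at a limit of 20%. Macrophage Tnf was 0.467 with Leiden clusters. At a fold of 2 the members past the fold were 0 in CD8+, macrophage, fibroblast and cancer cells. With a minimum of 20 UMIs they were 4 in CD4+, 3 in NK, 2 in macrophage, 3 in fibroblast and 4 in cancer cells. Scaled by the median gene they were 3 in CD8+ cells, and without the highest cells 5 in CD8+ cells and 1 in CD4+ cells. Removing no doublets, or removing the barcodes kept in both libraries, moved none of 12 values each. The last alternative, the highest-cell and the median-scaled alternatives and all those of the whole tumors were added after seeing the data; the cause of these changes was not tested. No replicate could be left out. Depth limits NK, gamma-delta and resistant CD4+ values and all lymphocyte ligands of the whole tumors. No paired analysis was possible because each group had 1 library.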
